A study of Homo sapiens with 30 samples.

Results

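Gene expression at 10 cGy was set against that at 1 cGy in 2 human lymphoblastoid lines, GM15036 and GM15510, to find which changes the lines shared and which they did not. The arrays were chosen by the dose in their titles, which gave 12 of the 30 arrays of the study, 3 for each line and dose. Lymphoblastoid lines are B cells kept growing in suspension by Epstein-Barr virus, and these were grown in MEM with serum. All groups were irradiated, with caesium 137, so the low dose of 1 cGy is the reference and no unirradiated group was analysed here. The other 18 arrays hold the same lines at 2.5, 5 and 7.5 cGy.

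Doses are in cGy as on the samples, although the overall design text attaches Gy to these numbers. How long after irradiation RNA was taken is unknown from the sources used here. Whether a group's 3 arrays are 3 cultures is not stated, so p-values reflect only array-to-array spread, perhaps technical, and 3 arrays a group set the precision. Each line stands for 1 donor, so line and donor cannot be told apart. In RNA from whole cultures, fewer cells of a type and less RNA per cell cannot be told apart.

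Ionising radiation breaks DNA, and cells answer through the kinases ATM and ATR and the transcription factor p53. p53 raises genes that stop the cell cycle (CDKN1A), that restrain p53 itself (MDM2, PPM1D) and that promote cell death (BAX, FAS). When cells stop dividing, the genes of the G2 phase and of mitosis fall as a group, because a shared repressor complex acts on their promoters. B cell identity rests on a set of transcription factors, among them PAX5.

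Values are MAS5 signals scaled so that all arrays have the same trimmed mean, and changes are differences of log2(signal + 4), 10 minus 1 cGy, so 1 on this scale is close to a doubling for bright probe sets and understates the change of dim ones. Of 22283 probe sets, 13329 were bright enough to be tested. A change passed when its adjusted p from limma was below 0.05. Before scaling, the 2 lines differed in how array brightness went with dose. The trimmed mean signal of GM15036 was 69.6 ± 10.2 (SD, n = 3) at 1 cGy and 22.1 ± 10.4 at 10 cGy, and that of GM15510 was 69.4 ± 10.5 and 89.1 ± 23.6. The log2 ratio of the 3′ to the 5′ control probe sets of ACTB, a measure of RNA and labelling quality, was higher at 10 cGy in both lines, 5.20 ± 0.153 against 4.48 ± 0.204 in GM15036 and 5.16 ± 0.096 against 3.75 ± 0.489 in GM15510. The same ratio of GAPDH was 2.84 ± 0.118 against 2.51 ± 0.171 in GM15036. In GM15510 it was not higher, 2.45 ± 0.184 against 2.47 ± 0.108. The part of brightness and of these ratios in the results was not tested. Where brightness or the ACTB ratio as a covariate ends the call for which a gene was named (its averaged change or its line difference), this is given with the gene. The GAPDH ratio as a covariate ended 20 of 123 named calls, which are not listed gene by gene. Brightness and the ACTB ratio differed with dose, and a call lost in this way need not have a smaller change.

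The B cell label was borne out by the markers as a list, though not by each of them. Of 27 B cell identity genes, 24 were tested, and the list's median signal was 119, where the median probe set had 15. MS4A1 (CD20) had scaled signals between 197 and 319 on the 12 arrays. BLK, CD37, FCER2 and BANK1 had medians of only 6.66, 14.7, 14.8 and 4.55. The 6 monocyte markers all fell below the filter, with a median signal of 2.13. The erythroid markers had a median of 2.47, and only HBB (13.2) was tested. The 5 fibroblast markers had a median of 7.03, and COL1A1 (21.8) and COL1A2 (14.8) were tested. Of 7 T and NK cell markers, only CD3E was tested, with signals of 3.44 to 29.0 and a rise in GM15036 (1.36, adjusted p = 0.0453). The summed signal of these 7 markers was 38.8 to 58.7 at 1 cGy and 68.0 to 89.4 at 10 cGy in GM15036, and 33.1 to 39.5 and 37.9 to 52.4 in GM15510. Their part in the results was not tested.

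Averaged over the lines, 1296 probe sets (9.72%) differed between 10 and 1 cGy, of which 502 (3.77%) were higher and 794 (5.96%) lower at 10 cGy. Of these, 1151 had the same sign in both lines and 145 had opposite signs, and 550 had no overlap between the arrays of the 2 doses in either line. Over all tested probe sets, 712 (5.34%) were free of overlap in the same direction in both lines and 521 (3.91%) in opposite directions. The averaged contrast asks for agreement by its own construction, so the share of same signs among its calls is no measure of how alike the lines were.

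Set side by side, the lines had little in common. GM15036 had 1565 changed probe sets (11.7%), 585 (4.39%) higher and 980 (7.35%) lower at 10 cGy. GM15510 had 788 (5.91%), 412 (3.09%) higher and 376 (2.82%) lower. In both lines 218 (1.64%) passed. These are 13.9% of the GM15036 calls, where 5.91% of all tested probe sets passed in GM15510. They are 27.7% of the GM15510 calls, where 11.7% of all passed in GM15036. Of the 218, 130 had the same sign, with 48 higher and 82 lower in both lines, and 88 had opposite signs, with 51 lower in GM15036 and higher in GM15510 and 37 the reverse. Of the probe sets that fell in GM15036, 57.3% had a change below 0 in GM15510, and of those that rose in GM15036, 48.7% had a change above 0. Over all tested probe sets, 52.3% had the same sign in both lines, and the changes correlated with Pearson's r = 0.0454 and Spearman's rho = 0.0539 across probe sets, which are not independent and which share arrays. The lines share no arrays, so their changes are linked by construction through the common scaling and filter. Their calls are also linked by the estimate of the spread, which for each probe set is shared by all arrays. A probe set with a small spread passes more easily in both lines, which can raise the number of shared calls of either sign.

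**Figure D1:**
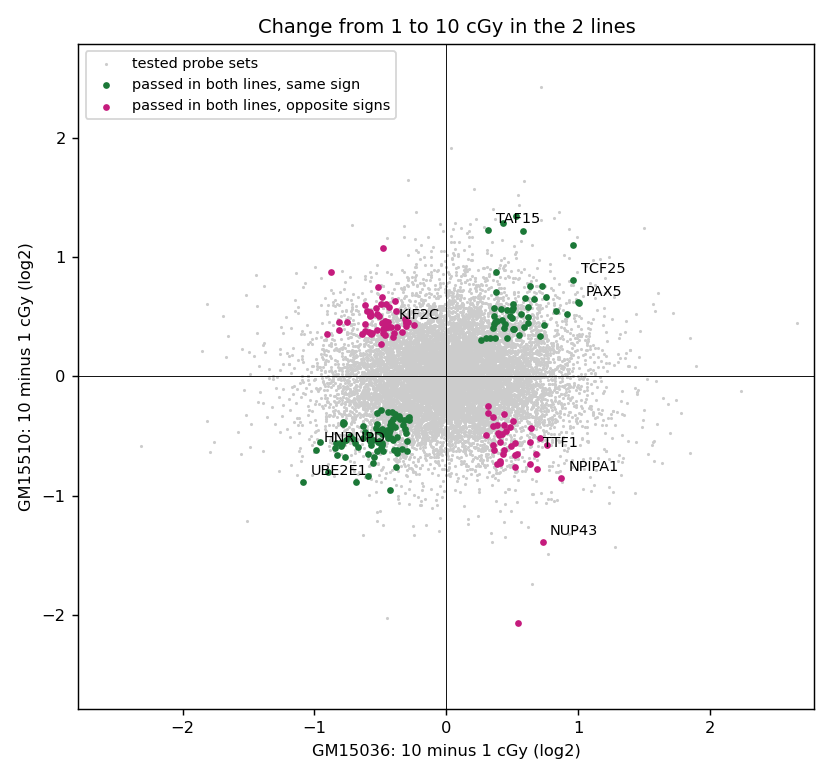
Change from 1 to 10 cGy on the log2 scale in GM15036 (horizontal) and GM15510 (vertical), with each grey point 1 of 13329 tested probe sets. Green points are the 130 probe sets that passed in both lines with the same sign and pink points the 88 that passed in both with opposite signs; the grey cloud has no visible slope, and NUP43 lies far into the lower right corner.

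The difference between the lines was tested directly as an interaction of line and dose. It passed for 1092 probe sets (8.19%), of which 671 (5.03%) had the higher change in GM15510 and 421 (3.16%) in GM15036, and 929 of the 1092 had opposite signs in the lines. These counts depended on single arrays in both lines. Without replicate b of GM15036 at 1 cGy, the interaction passed for 799, GM15036 had 1063 calls and 59 shared calls were of unlike sign. The 788 calls of GM15510 became 514 without its replicate 1 and 509 without its replicate 2 at 1 cGy, and 478 without its replicate 3 at 10 cGy. The 130 shared calls of like sign became 84 and 82 without replicates 1 and 3 of GM15510 at 1 cGy and 70 without its replicate 3 at 10 cGy, and the 88 of unlike sign became 55 without its replicate 2 at 1 cGy and 57 without its replicate 2 at 10 cGy. With brightness as a covariate, the calls in GM15036 fell to 362 and the interaction to 434. With the ACTB ratio as a covariate, the averaged calls fell to 205 higher and 332 lower, while the interaction had 1103.

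Among genes that moved the same way in both lines, the call with the smallest p was UBE2E1, a ubiquitin-conjugating enzyme. Its scaled signals in GM15036 were 490, 502 and 461 at 1 cGy and 230, 241 and 209 at 10 cGy. In GM15510 they were 918, 982 and 867 at 1 cGy and 483, 544 and 467 at 10 cGy. Each line's arrays at 10 cGy lay at about the same fraction of its arrays at 1 cGy, with no overlap. The averaged change was -0.985 ± 0.0619 (SE; adjusted p = 1.03e-12), with -1.08 in GM15036 and -0.885 in GM15510, and the lines' changes did not differ past the threshold (interaction adjusted p = 0.419). It was represented by 1 tested probe set.

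TCF25 and PAX5 rose in both lines. TCF25 encodes a component of the ribosome quality control complex. Its signals were 240, 228 and 231 at 1 cGy and 476, 464 and 435 at 10 cGy in GM15036, and 120, 122 and 109 against 202, 198 and 224 in GM15510. The averaged change was 0.886 ± 0.0732 (SE; adjusted p = 6.78e-10). A second TCF25 probe set did not pass (-0.158, adjusted p = 0.782). PAX5, the transcription factor that fixes B cell identity, had 505, 563 and 539 at 1 cGy and 1190, 1100 and 959 at 10 cGy in GM15036, and 343, 347 and 356 against 514, 594 and 504 in GM15510. The averaged change was 0.809 ± 0.0743 (SE; adjusted p = 8.01e-09), 1.00 in GM15036 and 0.614 in GM15510. Both genes had no overlap between doses, and both lines passed on their own.

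TAF15, an RNA-binding protein of the FET family, also rose in both lines but by unequal amounts. Its signals were 650, 689 and 604 against 782, 822 and 820 in GM15036, and 234, 233 and 227 against 537, 538 and 567 in GM15510. The change was 0.318 (adjusted p = 0.0114) in GM15036 and 1.23 (adjusted p = 1.92e-11) in GM15510, and the difference between the lines passed (0.909 ± 0.121, adjusted p = 8.52e-06). HIPK2, a kinase that phosphorylates p53, had the largest averaged rise among the genes named by the rule, 1.57 ± 0.2 (adjusted p = 2.96e-06). Its signals were low in GM15510 at 1 cGy, 9.48, 1.28 and 6.98, against 45.6, 42.2 and 49.3 at 10 cGy. In GM15036 they were 25.5, 29.2 and 30 against 43.4, 58.5 and 46.2, a change of 0.719 that did not pass in that line (adjusted p = 0.0984). The lines differed for HIPK2 too (1.71, adjusted p = 0.00499), and a second HIPK2 probe set did not pass (-0.258, adjusted p = 0.752).

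**Figure D2:**
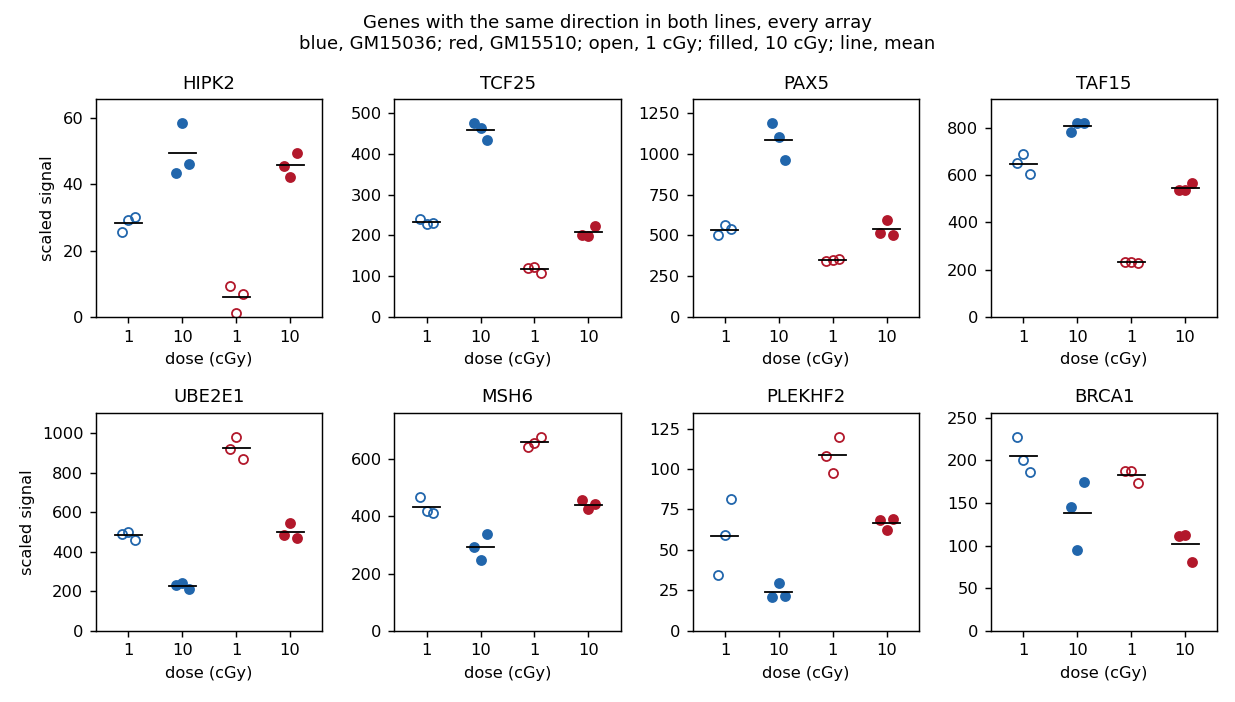
Scaled signal (linear, from 0) of 8 genes on each of the 12 arrays, with GM15036 in blue, GM15510 in red, 1 cGy open, 10 cGy filled and the group mean as a line. HIPK2, TCF25, PAX5 and TAF15 are higher at 10 cGy in both lines and UBE2E1, MSH6, PLEKHF2 and BRCA1 lower, with no overlap between doses in either line; the lines often differ in level at 1 cGy, as for TAF15.

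The rule for agreeing genes took the 12 highest and the 12 lowest averaged changes among those free of overlap in both lines, with 1 probe set a gene. The other risers were CYB5R3, a cytochrome b5 reductase (0.758, adjusted p = 6.12e-05), KLK1 (0.817), ZDHHC14, a palmitoyltransferase (1.07), AAK1, a kinase of clathrin-mediated endocytosis (0.729), JCHAIN, the joining chain of polymeric antibodies (1.08), the transfer RNA methyltransferase TRMT5 (1.03), ZNF528 (0.991) and the membrane oestrogen receptor GPER1 (0.724). CYB5R3 passed under every setting and without each array. KLK1, ZDHHC14 and AAK1 passed without each array but not with the ACTB ratio as a covariate (adjusted p = 0.173, 0.513 and 0.206), and KLK1 and ZDHHC14 not with brightness (0.121 and 0.298).

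The remaining 4 risers rested on single arrays. JCHAIN did not pass without replicate a or b of GM15036 at 1 cGy (adjusted p = 0.0539 and 0.0534) or without replicate 3 of GM15510 at 1 cGy (0.865, adjusted p = 0.0893), and its change was 0.034 with the ACTB ratio as a covariate. TRMT5 and ZNF528 were each lost without any 1 of 9 of the 12 arrays, and GPER1 without any 1 of 8. For TRMT5, replicate 3 of GM15510 at 1 cGy stood apart with a signal of 59.5 beside 209 and 209, and the change without it was 0.742 (adjusted p = 0.164). With the ACTB ratio as a covariate it turned to -0.145. JCHAIN, TRMT5, ZNF528 and GPER1 did not pass with brightness as a covariate (adjusted p = 0.47, 0.615, 0.15 and 0.0812), and with the ACTB ratio so did ZNF528 and GPER1 (0.477 and 0.0607). For ZNF528 and GPER1 the highest p among leave-outs came without replicate c of GM15036 at 1 cGy, 0.794 (adjusted p = 0.147) and 0.512 (adjusted p = 0.148).

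The genes that fell in both lines had varied roles. PLEKHF2, an endosomal protein, had signals of 34.4, 59.1 and 81.5 at 1 cGy and 20.9, 29.4 and 21.5 at 10 cGy in GM15036, and 108, 97.8 and 120 against 68.4, 62.5 and 68.8 in GM15510. Its averaged change was -0.883 ± 0.155 (SE; adjusted p = 0.00019). N4BP2L1 fell by 0.856 (adjusted p = 6.12e-05) on the log2 scale and NNT, the mitochondrial transhydrogenase, by 0.871 (adjusted p = 0.00178). The RNA-binding protein HNRNPD fell by 0.8 (adjusted p = 7.38e-06), TRAM1, which helps proteins into the endoplasmic reticulum, by 0.788, the ubiquitin ligase MARCHF7 by 0.752 and RAB2A, a small GTPase of the early secretory pathway, by 0.739. For these last 4 genes no other probe set passed on average. One of the 4 other HNRNPD sets changed in opposite directions in the lines (-0.523 in GM15036 and 0.521 in GM15510), and the 4 other RAB2A sets lay between -0.284 and 0.342.

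The larger averaged falls came from dimmer probe sets and were less stable. PSENEN, a subunit of gamma-secretase, had 24.5, 24.7 and 24.7 against 2.85, 3.75 and 13.3 in GM15036 and 21.8, 21.5 and 18.8 against 12.8, 16.2 and 7.44 in GM15510, an averaged change of -1.10 (adjusted p = 0.00237) that passed without each array but not with the ACTB ratio (adjusted p = 0.0854). AFG2B (-0.94) likewise passed without each array but not with that ratio (adjusted p = 0.0878), and NNT neither with it (0.149) nor with brightness (0.0671). UTRN, the dystrophin relative utrophin (-1.16, adjusted p = 0.0325), was lost without any 1 of 8 arrays. MRPS16, a mitochondrial ribosomal protein (-1.02, adjusted p = 0.0219), was lost without replicate c at 1 cGy (-0.866) or b at 10 cGy (-0.875) of GM15036, or without replicate 3 of GM15510 at 1 cGy (-0.893), with adjusted p between 0.0694 and 0.0817. Neither UTRN nor MRPS16 passed with brightness (adjusted p = 0.322 and 0.273) or the ACTB ratio (0.576 and 0.383) as a covariate.

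Of the other genes named from the lists, DNA repair supplied 3 that fell alike in both lines. MSH6, a subunit of the mismatch sensor, had 468, 419 and 412 against 292, 246 and 340 in GM15036 and 642, 655 and 679 against 457, 425 and 442 in GM15510. Its changes were -0.568 and -0.574, and the average was -0.571 ± 0.0731 (SE; adjusted p = 2.96e-06). BRCA1, which acts in homologous recombination, had 228, 201 and 187 against 145, 94.5 and 175, and 188, 188 and 173 against 111, 113 and 80.9, an averaged change of -0.716 ± 0.128 (SE; adjusted p = 0.000238). A second BRCA1 probe set had an averaged change of 0.602 that did not pass (adjusted p = 0.231). APEX1, the base excision repair endonuclease, fell by 0.450 (adjusted p = 0.000261), and did not pass with the ACTB ratio as a covariate (adjusted p = 0.111). The arrays of the doses did not overlap in either line for any of the 3. Of 40 repair genes tested, 6 fell and 2 rose on average, beside 6.33% and 3.62% of all 8101 genes, and the list's median was -0.011.

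H2AX, the histone variant that is phosphorylated at double-strand breaks, was singled out after its values were seen, because its 2 probe sets gave different results. One changed by 0.524 (adjusted p = 0.0406) in GM15036 and 1.34 (adjusted p = 2.36e-06) in GM15510, and averaged 0.934 (adjusted p = 3.37e-06). The other, brighter one, which stood for the gene under the rule, averaged 0.027 (adjusted p = 0.923). H2AX therefore has no settled change in these data.

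Single genes of protein folding, respiration and redox balance fell in both lines. Of 23 heat shock genes tested, 0 rose and 4 fell on average (3.62% and 6.33% of all genes). Below 0 in both lines were 6 of them, and 10 were lower in GM15036 and higher in GM15510. Of all 8101 genes, 2036 and 1817 were. HSP90AB1, the constitutive HSP90 chaperone, had 710, 671 and 592 against 481, 425 and 500, and 996, 1230 and 1260 against 745, 779 and 798, and fell by 0.532 (adjusted p = 1.43e-05), with its second probe set alike (-0.523). The chaperonin subunit CCT4 fell by 0.404 on average. The mitochondrial peroxidase PRDX3 fell by 0.614 (adjusted p = 3.37e-06) and passed in each line, although a second probe set did not pass (0.147). CYC1, cytochrome c1 of complex III, fell by 0.616 (adjusted p = 2.31e-05), and NDUFS1 of complex I by 0.452 (adjusted p = 0.000102), each past the threshold in both lines. Of 63 oxidative phosphorylation genes, 7 fell and 2 rose on average (6.33% and 3.62% of all genes). Below 0 in both lines were 17 of the 63, where 2036 of all 8101 genes were. NDUFB2, a complex I subunit, was among those that rose (0.488), but not with brightness or the ACTB ratio as a covariate (adjusted p = 0.0914 and 0.2).

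A few regulators and signals rose alike in both lines. JUND, a subunit of the AP-1 factor, had 189, 179 and 159 against 226, 240 and 281 in GM15036 and 206, 215 and 214 against 315, 302 and 324 in GM15510, a change of 0.526 (adjusted p = 1.43e-05). ATF4, the transcription factor of the integrated stress response, had 265, 292 and 279 against 337, 367 and 375, and 216, 196 and 222 against 261, 320 and 283, a change of 0.4 (adjusted p = 0.000199). The chemokine CCL22 rose by 0.447, with 0.421 and 0.473 in the lines, but not with the ACTB ratio as a covariate (0.215, adjusted p = 0.377). All 3 passed in both lines. None of the 3 passed when unscaled arrays were centred on their medians (adjusted p = 0.241, 0.616 and 0.512), a setting that shifted the median of all tested probe sets to -0.18.

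The p53 targets, the genes best known for a radiation response, were mostly a little higher at 10 cGy, and few passed. Of 25 tested, 16 were above 0 in both lines and 4 below 0 in both, where 2232 and 2036 of all 8101 genes were, and 4 rose and 2 fell on average (background 3.62% and 6.33%). The list's median was 0.088 in GM15036 and 0.241 in GM15510. When unscaled arrays were centred on their medians, 0 rose and 4 fell, where 68 and 2398 of all 13329 probe sets did. The list's median in GM15036 then turned to -0.413, beside -0.394 for all genes. TRIAP1, an inhibitor of apoptosis, had 232, 206 and 165 against 277, 266 and 294, and 165, 159 and 187 against 219, 232 and 219, and rose by 0.431 (adjusted p = 0.00145). CDKN1A, the p21 inhibitor of cyclin-dependent kinases, had 202, 184 and 150 against 231, 232 and 245 in GM15036 and 123, 164 and 151 against 157, 178 and 181 in GM15510, which overlap in GM15510. Its change was 0.324 (adjusted p = 0.0345), and it was lost without any 1 of 7 arrays, with adjusted p up to 0.124, and with brightness or the ACTB ratio as a covariate (0.309 and 0.24). MDM2, the ligase that degrades p53, changed by 0.512 (adjusted p = 0.0283), and was lost without any 1 of 5 arrays, with adjusted p up to 0.0899, and with the ACTB ratio as a covariate (0.0804). Without 1 of replicates b and c of GM15036 at 1 cGy, replicate 1 of GM15510 at 1 cGy or replicate 3 of GM15510 at 10 cGy, the 4 rising targets became 2.

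BAX, a pore-forming protein of apoptosis, rose in GM15510, and the lines differed. Its signals were 40.6, 36.8 and 43.3 at 1 cGy and 99.9, 107 and 94.5 at 10 cGy in GM15510, a change of 1.24 (adjusted p = 6.45e-06), and 104, 100 and 100 against 95.4, 82.1 and 147 in GM15036, a change of 0.049 (adjusted p = 0.901). The line difference was 1.19 (adjusted p = 0.00111), and the second BAX probe set did likewise. At 1 cGy the BAX signal in GM15036 already lay at the level that GM15510 had at 10 cGy. FAS, the death receptor, fell by 0.541 on average (adjusted p = 0.00115), with 341, 235 and 240 against 140, 152 and 176 in GM15036 and 277, 284 and 270 against 213, 237 and 221 in GM15510. One of its 3 other probe sets also passed on average (-0.518). Another did not (-0.22, adjusted p = 0.0962). That set fell in GM15036 (-0.602, adjusted p = 0.00062) and had 0.161 in GM15510, and its line difference passed (adjusted p = 0.00278). PPM1D, the p53-induced phosphatase, fell in GM15036 (57.7, 50.5 and 69.3 against 25.5, 25.1 and 33.9; -0.975, adjusted p = 0.000203), with -0.126 in GM15510 and a line difference of 0.848 (adjusted p = 0.0252). Its averaged change of -0.55 did not pass with brightness or the ACTB ratio as a covariate (adjusted p = 0.0657 and 0.303).

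DDB2, the damaged-DNA sensor of nucleotide excision repair, had changes of opposite sign. In GM15036 its signals were 138, 120 and 110 at 1 cGy and 87.3, 80.9 and 91.7 at 10 cGy (-0.48, adjusted p = 0.0571), and in GM15510 62.2, 59.0 and 58.2 against 103, 109 and 99.5 (0.757, adjusted p = 0.00363). The arrays did not overlap in either line, and the difference between the lines was 1.24 (adjusted p = 0.000751). The other radiation genes of the panel did not pass on average. GADD45A, a growth arrest gene, had an averaged change of 0.025 (adjusted p = 0.963), ATF3 0.073, CCNG1 -0.113, PCNA -0.152, TNFRSF10B 0.144, SESN1 0.172, AEN 0.23, XPC 0.328, POLH 0.396, PLK3 0.452 and ZMAT3 -0.008. The median of the 18 panel genes was 0.158.

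The genes that moved in opposite directions were led by NUP43, a component of the nuclear pore. Its signals rose from 354, 296 and 290 at 1 cGy to 540, 526 and 494 at 10 cGy in GM15036 and fell from 317, 314 and 267 to 116, 122 and 97.8 in GM15510. The lines thus started at about the same signal and ended far apart. The changes were 0.73 (adjusted p = 1.94e-05) and -1.39 (adjusted p = 1.24e-10), and the line difference was -2.12 ± 0.153 (SE; adjusted p = 4.74e-11). NPIPA1, a member of a multigene family whose copies the probe set can share, had 105, 77.9 and 82.5 against 122, 170 and 212 in GM15036 and 131, 152 and 123 against 74.3, 67.7 and 77.7 in GM15510. Its changes were 0.87 and -0.851, and both passed (line difference adjusted p = 3.81e-06).

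TTF1, which ends transcription by RNA polymerase I, showed the same crossing. It had 114, 116 and 104 against 186, 199 and 158 in GM15036 and 121, 145 and 142 against 94.1, 79.6 and 82.1 in GM15510, with changes of 0.678 and -0.651 that passed in both lines. A second TTF1 probe set did not pass, and the line difference was not called when unscaled arrays were centred on their medians (adjusted p = 0.0595). ICAM4, a red-cell adhesion molecule, was dim, with 5.85, 9.42 and 14 against 30.2, 31.5 and 35.2 in GM15036 and 7.57, 12.2 and 11.5 against 4.15, 7.54 and 5.79 in GM15510 (line difference -1.99, adjusted p = 0.00538). All its GM15510 signals lay below the median probe set (15), and the doses nearly met there, at 7.57 and 7.54. The other 4 genes of this direction were the kinase NEK3 (-1.59), the phosphoinositide phosphatase INPP5B (-1.43), the transcription factor CREBZF (-1.36) and the receptor NPY5R (-1.93). With brightness as a covariate none of these 4 passed (adjusted p = 0.184 to 0.331). NPY5R also did not pass without replicate c of GM15036 at 1 cGy (-1.71, adjusted p = 0.0567), and a second CREBZF probe set was lower at 10 cGy in GM15036 (-0.735, adjusted p = 0.016).

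In the other direction, HLA-DRA, the alpha chain of the MHC class II molecule HLA-DR, fell in GM15036 from 181, 180 and 165 to 73.7, 68.4 and 87.7. In GM15510 it had 190, 190 and 211 at 1 cGy and 230, 252 and 219 at 10 cGy, with no overlap. The changes were -1.16 (adjusted p = 6.38e-08) and 0.241 (adjusted p = 0.289), and the line difference was 1.40 ± 0.165 (SE; adjusted p = 2.03e-06). The second HLA-DRA probe set also fell in GM15036 (-0.969) and had no clear change in GM15510 (0.077, adjusted p = 0.852). MBNL2, a splicing regulator, had 66.2, 72.4 and 70.0 against 25.1, 50.6 and 19.9 in GM15036 and 92.2, 98.5 and 100 against 160, 155 and 128 in GM15510 (line difference 1.71, adjusted p = 0.00111). NUDT1, which clears oxidised nucleotides, had 66.3, 67.7 and 63.4 against 34.1, 45.3 and 46.3 in GM15036 (-0.617, adjusted p = 0.0882) and rose from 22.8, 44.7 and 43.5 to 75.1, 76.9 and 51.5 in GM15510 (0.839, adjusted p = 0.0271).

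The remaining 5 genes of this direction were less secure. CLDND1 (1.31, adjusted p = 0.00315) passed without each array but not with brightness as a covariate (adjusted p = 0.24), and so did NUDT1 (adjusted p = 0.0562). Nor did SERPINB1, AGFG2, IGF1 or KIF3A pass with brightness (adjusted p = 0.143, 0.173, 0.652 and 0.369), or KIF3A with the ACTB ratio (0.0751). SERPINB1, a protease inhibitor (1.80), did not pass without replicate c of GM15036 at 10 cGy (1.56, adjusted p = 0.053). AGFG2 (1.34) and the growth factor IGF1 (1.40) were each lost without any 1 of 11 of the 12 arrays, with adjusted p up to 0.124 and 0.0985, and 3 other IGF1 probe sets did not pass. The kinesin KIF3A (1.70) was lost without any 1 of 10 arrays. Its array a of GM15036 at 10 cGy had a signal of 0.687 beside 23.3 and 34.3, and the line difference without it was 0.772 (adjusted p = 0.105).

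**Figure D3:**
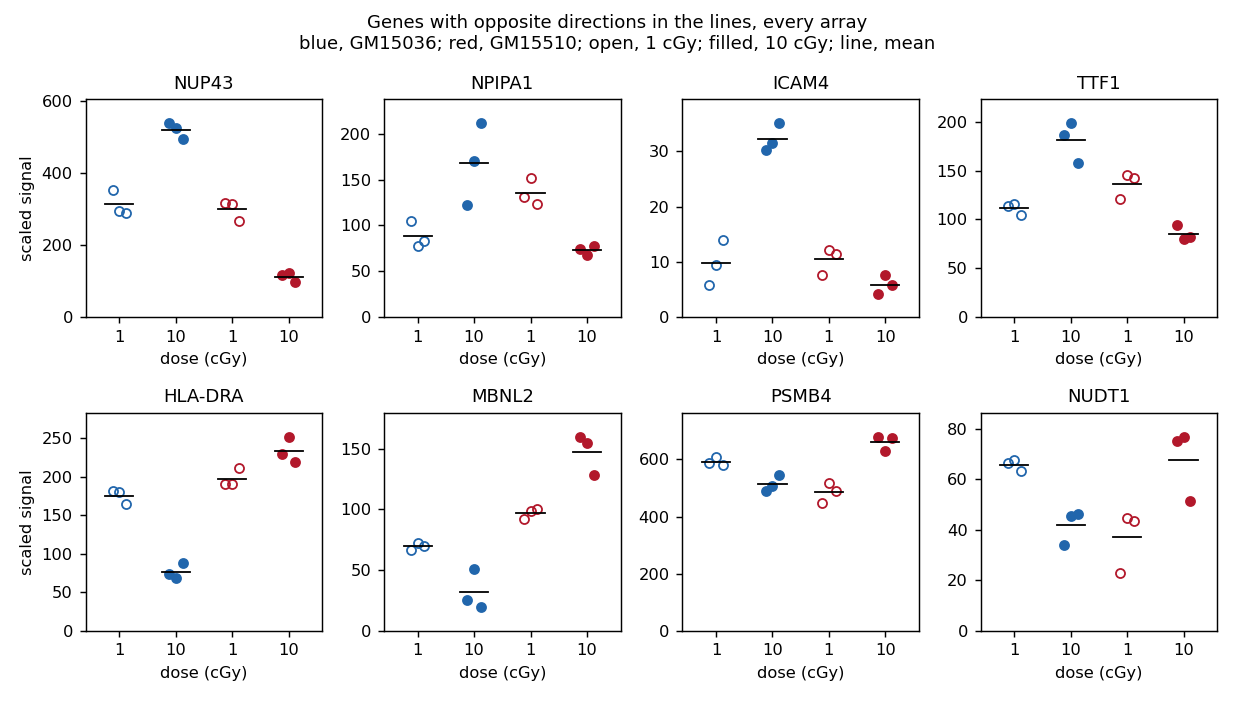
Scaled signal (linear, from 0) on each of the 12 arrays of 8 genes whose lines moved in opposite directions, drawn as in the plot of agreeing genes. NUP43, NPIPA1, ICAM4 and TTF1 are higher at 10 cGy in GM15036 and lower in GM15510, and HLA-DRA, MBNL2, PSMB4 and NUDT1 the reverse. The arrays of the 2 doses do not overlap in either line, though those of ICAM4 in GM15510 are dim and nearly meet.

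Among gene lists, many mitosis genes fell in GM15036. Of 47 genes of G2 and mitosis tested, 17 fell and 1 rose in GM15036, where 7.67% of all genes fell and 4.05% rose. In GM15510, 2 fell and 4 rose (background 3.01% and 3.15%). The list's median was -0.272 in GM15036 and 0.021 in GM15510, beside 0.025 and 0.000 over all 8101 genes, and 13 members passed the test of the line difference (background 8.07%). Without the 2 dimmest arrays of GM15036 at 10 cGy, 8 of the 47 fell in that line, where 238 in place of 621 of all genes did, and the median was -0.232. With brightness as a covariate 6 fell, where 243 in place of 980 of all tested probe sets did. When unscaled arrays were centred on their medians, the GM15036 median was -0.859, beside -0.394 for all genes. In GM15510 the 4 that rose became 1 or 2 without any 1 of its 6 arrays.

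CCNB2, a mitotic cyclin, had 218, 220 and 215 at 1 cGy and 112, 109 and 136 at 10 cGy in GM15036, and 297, 312 and 291 against 286, 281 and 308 in GM15510. It fell by 0.856 (adjusted p = 3.51e-07) in GM15036, with -0.04 in GM15510 and a line difference of 0.816 (adjusted p = 0.000148). CCNB1, named after its values were seen, did likewise, with 292, 259 and 288 against 163, 159 and 173 in GM15036 and 510, 525 and 464 against 474, 500 and 427 in GM15510 (line difference 0.65, adjusted p = 0.000779; 0.0965 with brightness as a covariate). HMMR, a spindle protein, had 233, 225 and 250 against 133, 137 and 104, and 465, 411 and 477 against 371, 330 and 366. It did not overlap in either line, fell in GM15036 by 0.911, and had -0.338 (adjusted p = 0.0702) in GM15510, and its second probe set was alike. The checkpoint kinase TTK fell by 0.738 in GM15036 and had -0.199 in GM15510.

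Some members did otherwise. BUB1B, the checkpoint kinase BubR1, fell in both lines by like amounts (-0.352 and -0.361), from 285, 273 and 275 to 234, 191 and 227 and from 338, 346 and 315 to 271, 261 and 244. The kinesin KIF2C had -0.419 in GM15036 and 0.417 in GM15510, past the threshold in both, although a second probe set did not pass, and the line difference did not pass with brightness as a covariate (0.531, adjusted p = 0.162). BUB3 had -0.497 and 0.268 by its brightest probe set, whereas another of its sets fell in both lines (-0.442 and -0.517). BUB1B, KIF2C and BUB3 were named after their values were seen.

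**Figure D4:**
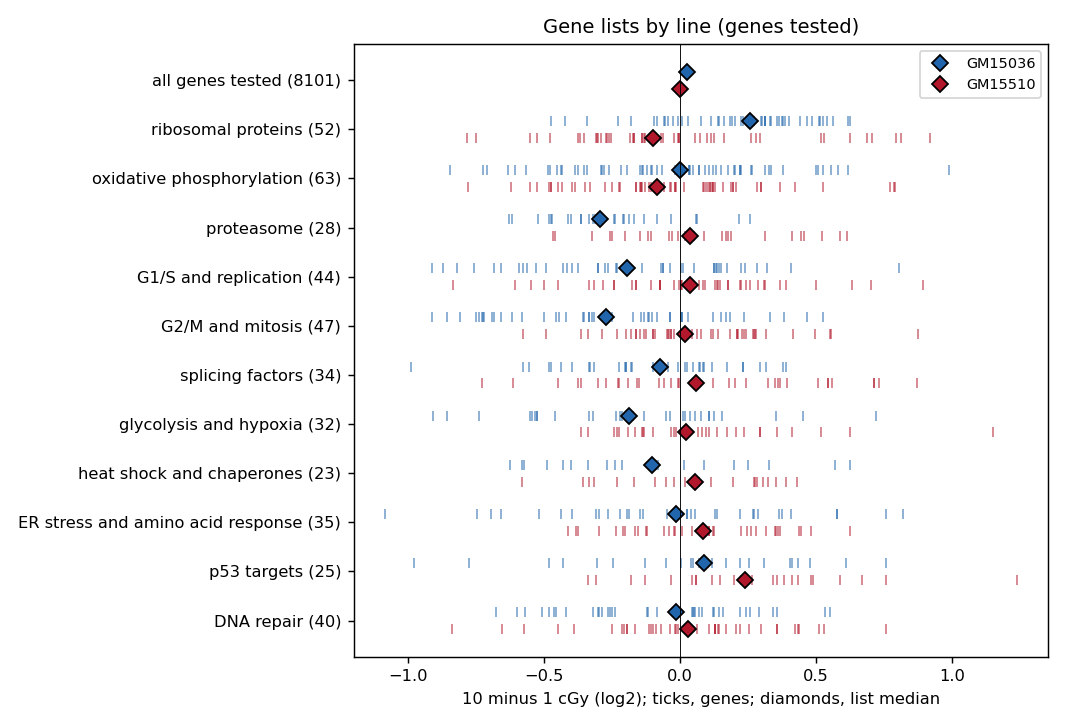
Change from 1 to 10 cGy on the log2 scale for 11 gene lists, with 1 tick a gene, and for all genes tested, shown by their medians alone, GM15036 above in blue and GM15510 below in red, diamonds at the list medians and the number of genes tested in brackets. The mitosis, G1/S and proteasome medians lie below 0 in GM15036 and near 0 in GM15510, and the ribosomal protein medians are 0.257 and -0.098, of which the first turns to -0.367 when unscaled arrays are centred on their medians.

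Promoters of 3 members of the mitosis list are printed from RefSeq (GRCh38.p14), 250 bases before to 50 after the start of the gene. Capitals mark the letters CCAAT, read by the factor NF-Y, and TTTGAA, the core of the cell cycle homology region, on either strand. CCNB2 is at chr15:59104896-59105195, HMMR at chr5:163460382-163460681 and BUB1B at chr15:40160819-40161118, all on the + strand.
CCNB2: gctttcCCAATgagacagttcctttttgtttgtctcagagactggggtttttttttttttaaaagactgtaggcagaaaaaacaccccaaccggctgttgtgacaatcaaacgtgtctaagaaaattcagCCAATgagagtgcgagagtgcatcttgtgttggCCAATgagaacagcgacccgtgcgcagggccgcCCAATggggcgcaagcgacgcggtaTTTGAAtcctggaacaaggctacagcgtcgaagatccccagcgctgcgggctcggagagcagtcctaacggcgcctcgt
HMMR: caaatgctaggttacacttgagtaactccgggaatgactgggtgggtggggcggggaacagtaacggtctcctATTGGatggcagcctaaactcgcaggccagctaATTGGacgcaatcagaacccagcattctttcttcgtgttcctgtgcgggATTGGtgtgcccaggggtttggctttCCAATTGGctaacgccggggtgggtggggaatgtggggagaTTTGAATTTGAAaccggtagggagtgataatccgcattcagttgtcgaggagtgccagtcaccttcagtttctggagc
BUB1B: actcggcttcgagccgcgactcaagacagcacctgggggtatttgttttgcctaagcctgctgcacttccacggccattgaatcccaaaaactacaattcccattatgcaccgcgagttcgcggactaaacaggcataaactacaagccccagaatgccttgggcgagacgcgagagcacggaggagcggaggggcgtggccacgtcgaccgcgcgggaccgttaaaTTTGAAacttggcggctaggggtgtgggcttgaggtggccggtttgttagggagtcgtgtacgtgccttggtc
CCNB2 and HMMR, which fell in GM15036, hold 4 and 5 CCAAT matches and 1 and 2 TTTGAA matches, and 2 of the HMMR matches overlap as CCAATTGG. BUB1B, which fell in both lines, holds 1 TTTGAA and 0 CCAAT. Of 2 other members that fell in GM15036, CCNB1 holds 2 CCAAT and 0 TTTGAA, and KIF2C holds neither. Promoters of 39 of the 47 genes were found in the RefSeq table. CCAAT was in 79.5% of them and in 34.6% of all 35116 promoters of the same length, and TTTGAA in 69.2% and 15.2%. The E2F letters TTTCGCGC and TTTGGCGC were each in 1 of the 39, beside 0.515% and 0.652% of all promoters. Among promoters of the 52 ribosomal protein genes, of which 46 were found, 30.4% held CCAAT and 10.9% TTTGAA. The shares cover list members whether or not they fell. A match of letters is a description and shows no bound factor, and a link of the letters to the changes was not tested.

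The replication genes and the proteasome leaned the same way as mitosis in GM15036. Of 44 genes of G1/S and replication, 10 fell and 0 rose in GM15036 (7.67% and 4.05% of all genes), and 2 fell and 3 rose in GM15510 (3.01% and 3.15%), with medians of -0.195 and 0.039. RFC3, a clamp loader subunit, fell by 0.818 (adjusted p = 2.37e-07) in GM15036 and had -0.022 in GM15510 (line difference adjusted p = 9.68e-05). CDC25A, the phosphatase that drives entry into S phase, rose in GM15510 by 0.894 (adjusted p = 0.000182) and had -0.06 in GM15036. Its averaged change of 0.417 became 0.455 with the ACTB ratio as a covariate and did not pass (adjusted p = 0.0655). Without the 2 dimmest arrays, 4 of the 44 fell in GM15036, where 372 in place of 980 of all 13329 probe sets did. With brightness as a covariate it was 2, where 243 of all probe sets fell.

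Of 28 proteasome genes, 8 fell and 0 rose in GM15036 (7.67% and 4.05% of all genes), and 2 fell and 3 rose in GM15510 (3.01% and 3.15%), with medians of -0.293 and 0.039. PSMD14, the deubiquitinase of the lid, fell in both lines, from 1010, 967 and 880 to 644, 695 and 649 and from 1210, 1240 and 1220 to 874, 908 and 888 (averaged -0.489 ± 0.0528 (SE), adjusted p = 1.91e-07). PSMA7, a core subunit, fell in both as well (-0.617 and -0.466), but its second probe set did not pass. PSMB4 and PSMB1, core subunits named after their values were seen, had opposite signs in the lines. PSMB4 had 589, 609 and 579 against 489, 506 and 546 in GM15036 and 449, 516 and 489 against 680, 629 and 674 in GM15510, a line difference of 0.651 (adjusted p = 0.000654) that did not pass with brightness as a covariate (0.534, adjusted p = 0.0612). PSMB1 had a line difference of 0.822 (adjusted p = 0.000554). For both genes the second probe set passed in each line with opposite signs, -0.513 and 0.509 for PSMB4 and -0.583 and 0.372 for PSMB1. On average 6 proteasome genes fell, and 3 did without replicate a or b of GM15036 at 1 cGy.

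Of the lists with members tested, the ribosomal proteins had the largest share of members that differed between the lines, but their direction depended on the scaling. Of 52 tested, 27 passed the test of the line difference (background 8.07%). Above 0 in GM15036 and below 0 in GM15510 were 28 of the 52, where 2016 of all 8101 genes were. In GM15036 17 rose and 1 fell (4.05% and 7.67% of all genes), and in GM15510 6 rose and 10 fell (3.15% and 3.01%). When unscaled arrays were centred on their medians, 0 rose and 21 fell in GM15036, and 13 passed the line difference. Of all 13329 probe sets, 77 rose and 4251 fell in GM15036 under that centring, and 2754 passed the line difference. The list's median in GM15036 was then -0.367, beside -0.394 for all genes. In this setting the pseudocount of 4 was added to unscaled signals, so it weighed more on dim arrays than on bright ones. With scaled arrays centred on their medians, the median in GM15036 was 0.023 beside -0.209 for all genes. With brightness as a covariate, 1 rose in GM15036 and 7 passed the line difference. Over all 13329 tested probe sets, 119 in place of 585 rose there and 434 in place of 1092 passed. Without the 2 dimmest arrays, 2 rose in GM15036 and 18 passed, where 165 and 584 of all probe sets did. The 17 became 11 and 9 without replicates b and c of GM15036 at 1 cGy, and the 10 became 6, 5, 6 and 5 without replicate 1 or 2 at 1 cGy and replicate 1 or 3 at 10 cGy of GM15510.

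The members did not act as 1 block. RPS15 had 425, 418 and 486 against 610, 737 and 596 in GM15036 (0.54, adjusted p = 0.000768) and 693, 689 and 577 against 554, 528 and 534 in GM15510 (-0.271, adjusted p = 0.16). RPS29 had 602, 561 and 522 against 617, 647 and 708 in GM15036, and 927, 787 and 655 against 466, 430 and 497 in GM15510, where it fell by 0.748 (adjusted p = 7.1e-05). A second RPS19 probe set also rose in GM15036 (0.52), but its line difference did not pass (adjusted p = 0.37). RPS27 fell in GM15510 from 1070, 1140 and 1050 to 754, 730 and 728 (-0.552), and RPS19 and RPL12 rose in GM15036 (0.626 and 0.619). RPL8 went against the list and rose in GM15510, from 231, 253 and 327 to 498, 557 and 475 (0.918, adjusted p = 5.8e-06), with -0.227 in GM15036. These 6 were named after their values were seen. RPL27A and RPL35 rose in both lines, by 0.376 and 0.708 and by 0.562 and 0.52, but not when unscaled arrays were centred on their medians (averaged adjusted p = 0.165 and 0.243) or with the ACTB ratio as a covariate (0.079 and 0.135). Ribosomal protein probe sets can share sequence with pseudogenes, so single members are uncertain. The line differences of RPS15, RPS29, RPS27, RPS19 and RPL12 did not pass under that centring, that of RPL12 did not pass with brightness as a covariate (adjusted p = 0.113), and those of RPS19 and RPS27 changed sign (0.057 and 0.002).

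Of 34 splicing factors, 9 rose and 4 fell in GM15510 (3.15% and 3.01% of all genes), while 0 rose and 5 fell in GM15036 (4.05% and 7.67%). U2AF1, which recognises the 3′ splice site, rose in GM15510 by 0.873 (adjusted p = 5.94e-07) and had 0.071 in GM15036 (line difference adjusted p = 0.000414). HNRNPA2B1 rose by 0.713 in GM15510 and had 0.294 (adjusted p = 0.0825) in GM15036. HNRNPA1 fell in both lines, from 162, 178 and 147 to 108, 106 and 113 and from 206, 205 and 201 to 119, 127 and 119, but 2 other HNRNPA1 probe sets lay at -0.001 and -0.01 on average, so the fall belongs to 1 probe set and not to the gene as a whole. Of 32 glycolysis and hypoxia genes, 8 fell and 0 rose in GM15036 (7.67% and 4.05% of all genes). In GM15510 3 rose and 0 fell (3.15% and 3.01%), and 1 rose without replicate 3 at 10 cGy. KDM3A, a hypoxia-induced demethylase, and P4HA1, a collagen hydroxylase, fell by 0.452 and 0.386 on average.

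B cell genes were mixed. Of 24 tested, 2 rose and 3 fell on average (3.62% and 6.33% of all genes), and the medians were -0.07 and -0.011. Beside PAX5, which rose in both lines, the B cell coactivator POU2AF1 rose in GM15510 from 1130, 1110 and 1120 to 1460, 1550 and 1670 (0.472, adjusted p = 0.000162) and had -0.098 in GM15036 (line difference adjusted p = 0.000985). The kinase BTK, which acts below the B cell receptor, had 120, 203 and 135 against 99.0, 133 and 125 in GM15036 and rose in GM15510 from 95.0, 123 and 81.9 to 224, 305 and 170 (1.17, adjusted p = 0.00141), although the line difference did not pass with brightness as a covariate (adjusted p = 0.119). CD74, the chaperone of MHC class II, fell in GM15510 by 0.412 (adjusted p = 0.0033), with 0.089 in GM15036. Its partner HLA-DRA had the opposite sign in GM15510, by a change that did not pass. The CD74 line difference (-0.501, adjusted p = 0.0101) did not pass under either median centring or with brightness as a covariate (adjusted p = 0.292) and turned to 0.185 when unscaled arrays were centred. POU2AF1, BTK and CD74 were named after their values were seen. FDPS, an enzyme of cholesterol synthesis, rose in GM15510 (354, 361 and 406 against 695, 719 and 733; 0.933, adjusted p = 4.31e-08), with -0.038 in GM15036 and a line difference that passed (0.971, adjusted p = 1.4e-05).

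The remaining list members named by the rule were of smaller size. Genes that passed on average without each array and were lower at 10 cGy were the polymerase I cofactor TAF1D (-0.562), which passed in both lines, the interferon-induced GTPase GBP1 (-0.465), the mitophagy receptor BNIP3 (-0.453), the chaperonin subunit CCT5 (-0.392), the mitotic kinesin KIF23 (-0.607), the histone mRNA binding protein SLBP (-0.376), the cholesterol enzyme SQLE (-0.412) and the chaperone HSPH1 (-0.245). Those that were higher were the ubiquitin-like modifier ISG15 (0.451), the disulfide isomerase PDIA4 (0.511), the lymphotoxin LTB (0.426), the methionine sulfoxide reductase MSRA (0.606), the ribosomal protein RPL36 (0.468) and the cholesterol enzyme EBP (0.46). EBP had a second probe set that was lower in GM15036 (-0.848). Second probe sets of GBP1, BNIP3, PDIA4, HSPH1 and SQLE did not pass on average (-0.06, 0.084, 0.102, -0.227 and -0.367). TAF1D, GBP1, MSRA and RPL36 also passed with brightness and with the ACTB ratio as covariates. BNIP3 (adjusted p = 0.259 and 0.252) and KIF23 (0.17 and 0.0725) passed with neither, SQLE did not pass with brightness (0.0782), and CCT5, SLBP, HSPH1, ISG15, PDIA4, LTB and EBP did not pass with the ACTB ratio (0.0578, 0.084, 0.103, 0.0649, 0.175, 0.264 and 0.174). A further 7 passed on average but also differed between the lines. The helicase DDX21, the nucleolar protein NOLC1, the proteasome subunit PSMD1 and the ER degradation adaptor SEL1L fell in GM15036 (-0.624, -0.414, -0.481 and -0.658) and lay within 0.083 of 0 in GM15510. A second PSMD1 probe set also fell in GM15036 (-0.63). Other SEL1L sets lay at 0.607, 0.048 and 0.217 there and other NOLC1 sets at -0.293 and 0.216, and none of these passed. The ferritin light chain FTL rose in GM15036 (0.608), the early response gene IER3 rose in GM15510 (0.896) and the ribosomal protein RPL23A fell there (-0.783). The averaged calls of NOLC1 and FTL were lost with brightness (adjusted p = 0.0516 and 0.101) and with the ACTB ratio (0.0685 and 0.104), and that of DDX21 with the ACTB ratio (0.055).

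The other 14 lost their averaged call without at least 1 array. CALR (0.601), CR2 (-0.39), PSMD12 (-0.257) and UQCRC1 (-0.486) lost it without any 1 of 8 arrays, EGR3 (-0.461) and ERCC5 (0.434) without any 1 of 9, and RFC1 (-0.41) and IFI44L (-0.201) without any 1 of 6. GCLM (-0.589) and LYN (-0.444) lost it without any 1 of 4 arrays, PMVK (0.426) without any 1 of 3, and IER2 (0.449), NFKB1 (-0.336) and SLC2A3 (-0.596) without either of 2. With brightness and with the ACTB ratio as covariates, PMVK and NFKB1 passed, though NFKB1 did not pass with the GAPDH ratio. IER2 and SLC2A3 passed with the ACTB ratio but not with brightness (adjusted p = 0.183 and 0.132). The other 10 passed with neither brightness nor the ACTB ratio. Their highest adjusted p without 1 array lay between 0.0617 for NFKB1 and 0.179 for UQCRC1.

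The intermediate doses show where the value at 10 cGy lay among the others. Each value is a difference from the same 1 cGy arrays of its line, so they are given side by side as a description. Array quality also differed between doses. Mean brightness in GM15510 was 18.7 at 2.5 cGy and 39 ± 26.6 (SD) at 5 cGy, where the ACTB ratio ran from 3.43 to 5.52. In GM15036 brightness was 49.8, 51.3 and 32.4 at 2.5, 5 and 7.5 cGy. The part of array quality in these courses was not tested. UBE2E1 in GM15036 lay at -0.326, -0.195, -0.619 and -1.08 at 2.5, 5, 7.5 and 10 cGy, and in GM15510 at -0.751, -0.117, -0.137 and -0.885. In neither line was the mean lower at each next dose. TCF25 in GM15510 was nearly as high at 2.5 and 5 cGy (0.682 and 0.839) as at 10 cGy (0.808), and in GM15036 it was at -0.142 at 5 cGy. The PAX5 mean was higher at each next dose in GM15036 (0.091, 0.118, 0.4 and 1.00) but not in GM15510 (0.333, 0.45, 0.06 and 0.614).

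NUP43 in GM15510 was at -0.019, 0.466 and -0.063 at 2.5, 5 and 7.5 cGy before -1.39 at 10 cGy, so of the 5 doses only the highest had so low a mean, whereas in GM15036 it was at 0.179, 0.137, 0.525 and 0.73. NPIPA1 stayed within 0.211 of the 1 cGy mean in GM15036 and within -0.175 of it in GM15510 up to 7.5 cGy. CCNB1 in GM15036 was at 0.066, 0.276 and -0.086 before -0.748. HLA-DRA in GM15036 was at -0.397, 0.101, -0.821 and -1.16. The SD of the 3 arrays at 10 cGy was between 0.0405 and 0.389 over the 8 genes of the dose plot in the 2 lines.

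**Figure D5:**
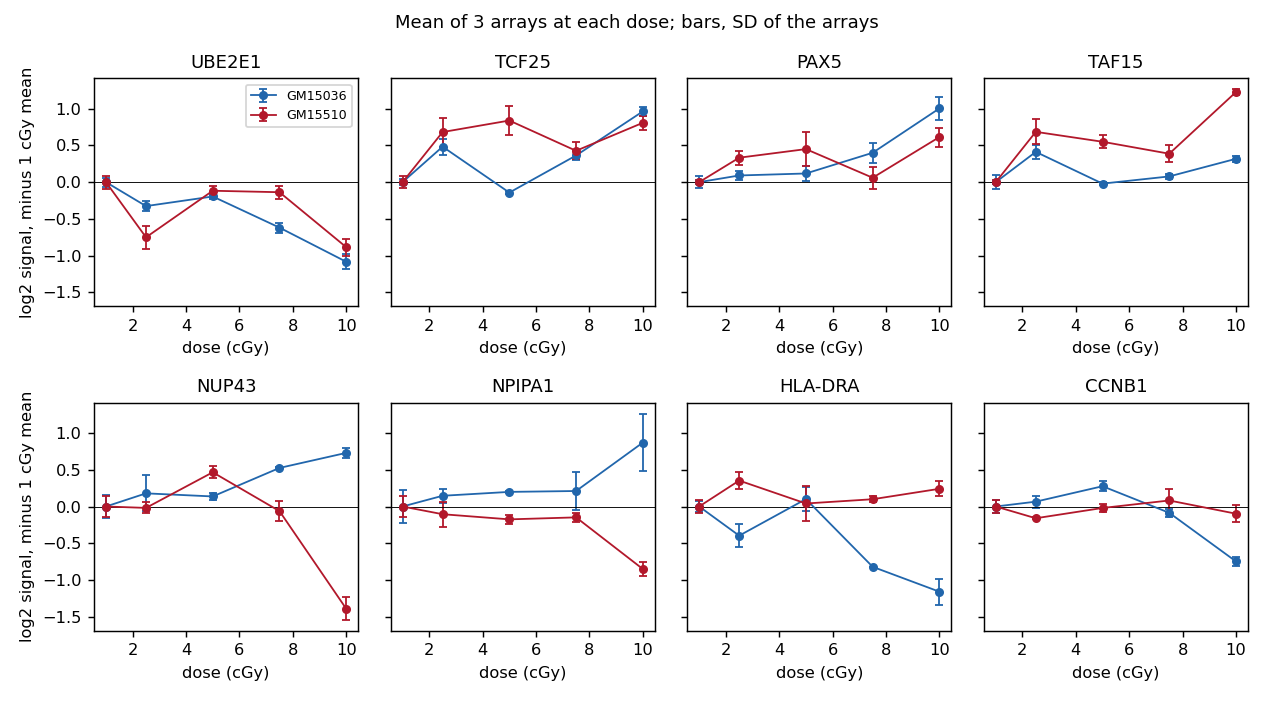
Mean log2 signal of 3 arrays at 1, 2.5, 5, 7.5 and 10 cGy, relative to the line's own mean at 1 cGy, for 8 genes, with GM15036 in blue, GM15510 in red and bars for the SD of the arrays. UBE2E1 is at -1.08 and -0.885 at 10 cGy in the lines but near 0 at 5 cGy in both, and NUP43 and NPIPA1 part between the lines at 10 cGy.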

How the data were processed

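The authors deposited linear signal intensities for 30 Affymetrix arrays in 1 table. MAS5 is named in the submitters' processing notes; its version and scaling target are not given in the sources used here. Labelling was by an Affymetrix 3′ in vitro transcription method, per the labels' protocols. The platform annotation names 1 gene for 19071 of 22283 probe sets, more than 1 for 1043 and none for 2169; symbols were updated through the gene ID for 19059 with RefSeq (GRCh38.p14), and probe sets with several symbols or none were not named.

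The trimmed means of the arrays (2 to 98 percent of values) differed by 7.91 times, from 14.1 to 112, so each array was scaled to 50.9. A pseudocount of 4 was added before log2, 68 control probe sets were left out, and the dimmest 40 percent were dropped by their mean over all arrays, which left 13329. limma 3.58.1 in R 4.3.3 fitted the 10 groups of line and dose on all 30 arrays (eBayes with trend, two-sided, 20 residual and 12.3 prior degrees of freedom). All 30 arrays share 1 estimate of the spread. The contrasts were 10 minus 1 cGy in each line, their mean, and their difference (GM15510 minus GM15036). Every adjusted p is limma's, with Benjamini-Hochberg adjustment over all tested probe sets. The fit was tested on simulated data.

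For gene lists, each gene had 1 probe set, the one with the highest mean, and sets ending in _x_at or _s_at stood in only for lack of others, which gave 8101 genes. Lists are described by counts and medians, with no test of the list. Genes were named by rule: the 12 highest and 12 lowest averaged changes past the threshold, of the same sign in both lines and without overlap of arrays between the doses; 8 in each direction by the line difference, of opposite signs and without overlap; up to 4 members of each of 26 lists past the threshold on average; and a radiation panel whatever its test. A further 16 genes, and H2AX, were named after their values were seen. The comparison, the lists and the members were chosen with earlier results of these data known. Arrays of the same line and dose correlated at 0.909 to 0.972, and no 2 arrays were identical. Alternatives covered the scaling, pseudocount, filter, eBayes options, array weights, arrays in the fit, the replicate label, brightness and control ratios as covariates, and each array left out.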

Additional observations from a re-analysis of the deposited data

Results flagged for a closer look

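The 49 genes here were picked out because their change from 1 to 10 cGy differed between the lines by the limma test of the difference itself, past an adjusted p of 0.05. Each value is the change in GM15510 minus that in GM15036 on the log2 scale. Of the genes chosen for opposite directions, those with the higher change in GM15036 had NUP43 -2.122, NPIPA1 -1.721, ICAM4 -1.994, TTF1 -1.33, INPP5B -1.427, CREBZF -1.355, NEK3 -1.591 and NPY5R -1.93, and those with the higher change in GM15510 had HLA-DRA 1.401, MBNL2 1.711, NUDT1 1.456, SERPINB1 1.8, CLDND1 1.308, KIF3A 1.7, IGF1 1.395 and AGFG2 1.34.

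Among ribosomal proteins the differences were RPS15 -0.811, RPS19 -0.648, RPS27 -0.694, RPS29 -0.974, RPL12 -0.757, RPL23A -0.792 and RPL8 1.146. Among genes of the cell cycle they were CCNB1 0.65, CCNB2 0.816, HMMR 0.573, BUB3 0.764, KIF2C 0.836, CDC25A 0.954 and RFC3 0.796, and among p53 targets BAX 1.191, DDB2 1.236 and PPM1D 0.848. Proteasome subunits had PSMB1 0.822, PSMB4 0.651 and PSMD1 0.442, and B cell genes BTK 1.49, POU2AF1 0.57 and CD74 -0.501. The other genes had DDX21 0.707, FDPS 0.971, FTL -0.636, HIPK2 1.71, IER3 0.655, KDM3A 0.572, NOLC1 0.416, SEL1L 0.639, TAF15 0.909 and U2AF1 0.801.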

How the results depend on the processing

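Of 123 calls of named genes, 96 passed without each of the 12 arrays and 39 also under every other setting. The most were lost with array brightness (45) or the ACTB ratio (44) as a covariate, without the 2 dimmest GM15036 arrays at 10 cGy (41) and with unscaled arrays centred on their medians (36). That centring gave 68 higher and 2398 lower on average (2.76% higher, against 38.7%), 4328 in GM15036, 184 in GM15510, 17 shared of like sign and 2754 line differences; it moved the median of all changes to -0.18. Scaled arrays centred on their medians gave 166 higher and 1439 lower (10.3% higher; median -0.11), and 469 in GM15510. Without the eBayes trend 79 shared calls had like and 52 unlike signs. Array weights gave 1697 in GM15510, 211 like and 151 unlike. With brightness as a covariate there were 323 higher, 429 lower, 362 in GM15036, 42 like, 33 unlike and 434 line differences; with the GAPDH ratio 957 in GM15036; with the ACTB ratio, chosen after seeing the data, 205 higher, 332 lower, 404 in GM15510, 51 like and 39 unlike. Without the 2 dimmest arrays, also chosen after seeing the data, there were 270 higher, 470 lower, 537 in GM15036, 61 like, 38 unlike and 584 line differences. An additive fit of line and dose on 12 arrays gave 292 higher and 381 lower. The cause of these shifts was not tested.

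Leaving out 1 array at a time gave 373 to 453 higher and 592 to 800 lower on average, 1063 to 1539 in GM15036, 478 to 836 in GM15510, 70 to 111 shared of like and 55 to 92 of unlike sign, and 799 to 1068 line differences. Same-labelled arrays at 1 and 10 cGy showed no shared pattern, with deviations from their group means correlated at -0.0556 to 0.00364. Whether such arrays belong together is not stated, and these correlations cannot settle it. A replicate block gave 494 higher and 768 lower on average and 1042 line differences.

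Signs turned as follows. With unscaled arrays centred on their medians, ATF3 had -0.139, DDB2 -0.114, FTL -0.016, GADD45A -0.222 and TNFRSF10B -0.159 on average, and the line difference was 0.185 for CD74, 0.057 for RPS19 and 0.002 for RPS27. With scaled arrays so centred, ATF3 had -0.049 and GADD45A -0.096. GADD45A had -0.056 with the GAPDH and -0.01 with the ACTB ratio, and TRMT5 -0.145 with the latter. ZMAT3 had 0.052 with array weights, 0.12 with brightness, 0.156 with the ACTB ratio and 0.081 without the 2 dimmest arrays, where SESN1 had -0.142. Without 1 array, ATF3 lay between -0.061 and 0.174, GADD45A between -0.067 and 0.185 and ZMAT3 between -0.074 and 0.102. The cause was not tested.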
